A study of Felis catus with 2 samples.

Results

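The smooth muscle contractile genes considered here encode the actins, myosin heavy chain, actin-binding proteins and intermediate filament proteins that mark smooth muscle of the ciliary body, iris and vessel walls. They were taken as the loci of the deposited expression table whose gene name exactly matched ACTA2, ACTG2, MYH11, CNN1, DES, TAGLN, SMTN, MYLK, LMOD1 or SYNM. Of these 10 names, 9 had a row among the 32065 loci, and each of the 9 names stood on 1 row. MYLK, the kinase that phosphorylates the myosin light chain, was not analysed here. No sequence of these genes was used here.

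Polyadenylated RNA was sequenced from 2 libraries of domestic cat tissue, 1 from a normal cat and 1 from a cat affected by primary congenital glaucoma (PCG). Per the study's methods both cats were 2 months old and unrelated, affected cats of the colony carry a frameshifting insertion in LTBP2, and no treatment is given for either cat. Each library came from a block of drainage-angle tissue in which ciliary body, meshwork and scleral wall were kept together, so every value is a sum over many cell types. With 1 cat in each group no replicate error can be had, and the differences below are descriptions of these cats and carry no test.

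Smooth muscle contracts when calcium entering the cell, or released within it, binds calmodulin and activates the light chain kinase. Phosphorylated myosin then pulls on actin filaments that are anchored at dense bodies and linked by desmin-type intermediate filaments. In the eye this machinery drives accommodation through the ciliary muscle, pupil size through the iris sphincter and dilator, and vessel calibre. Contraction of the ciliary muscle also acts on the trabecular meshwork, through which aqueous humor leaves the eye, and meshwork cells are themselves known to contain smooth muscle actin.

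Expression is given as FPKM, a fragment number divided by exon length and by library size, so levels of different genes can be compared. The summed FPKM was 649113 in the normal cat and 672893 in the affected cat. From the steps between low values, the fragments behind them numbered about 71000000 in the normal cat and 67300000 in the affected cat. A transcript with 1 kilobase of effective length would thus collect 71.0 fragments per FPKM in the normal cat and 67.3 in the affected cat. The interval given with each ratio below is a 95% interval for this counting error only, for an effective length of 1 kilobase, and it narrows for longer transcripts. Differences between cats or between dissections are not part of it.

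All 9 contractile genes were expressed in both libraries, and none was listed at 0. Their levels spanned 11.4 to 600.0 FPKM in the normal cat and 12.8 to 699 FPKM in the affected cat. The lowest of the 9, SYNM in the normal library, was still above 58.6% of the 16676 loci that reached 1 FPKM in either library. ACTA2 was above 99.1% of those loci in the normal cat and 99.2% in the affected cat. The summed FPKM of the 9 genes was 1368 in the normal cat and 1208 in the affected cat, an affected value 0.883 times the normal one. This nearly equal sum hid differences in opposite directions among the genes, with 4 higher and 5 lower in the affected library.

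**Figure D1:**
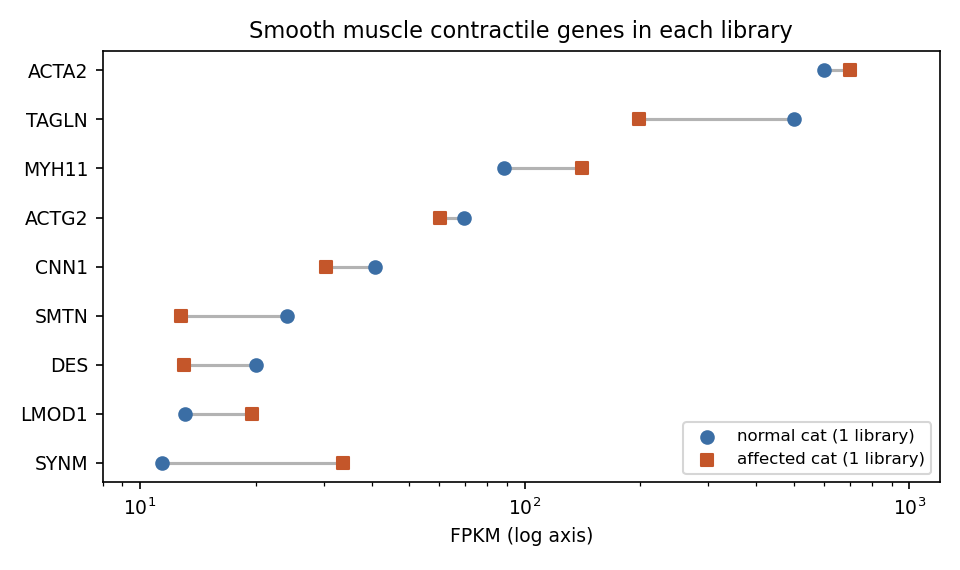
FPKM of the 9 contractile genes (logarithmic horizontal axis) in the library of the normal cat (circles) and of the affected cat (squares), with a grey line joining the values of a gene. ACTA2 leads in both libraries, TAGLN is at 501 and 199 FPKM, and SYNM, the lowest in the normal library, is at 33.7 FPKM in the affected one.

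The actins were the least changed members. ACTA2, the alpha actin of vascular and ciliary smooth muscle, was the most abundant of the 9 genes, with 600.0 FPKM in the normal cat and 699 FPKM in the affected cat. The affected value was 1.17 times the normal one (interval 1.15 to 1.18). ACTG2, the gamma actin best known from visceral smooth muscle, had 69.7 FPKM in the normal cat and 60.2 FPKM in the affected cat. It was 1.16 times higher in the normal library (affected over normal 0.864, interval 0.829 to 0.900). ACTA2 exceeded ACTG2 by 8.61 times in the normal cat and 11.6 times in the affected cat. Actin genes are near-identical in their coding sequence, so reads shared between them make these values less certain than the counting error shows. A further sarcomeric actin on the paralogue list, ACTC1, had 26.7 and 37.3 FPKM, whereas ACTB, ACTG1 and ACTA1 were not analysed here.

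MYH11, the heavy chain of smooth muscle myosin and the most specific marker of the differentiated cell, was higher in the affected library. It had 88.2 FPKM in the normal cat and 141 FPKM in the affected cat, a ratio of 1.60 (interval 1.55 to 1.65). Its locus on chromosome E3 of felCat5, from 30302124 to 30448299, is listed with the same span as NDE1, a centrosomal gene. NDE1 had 10.9 FPKM in the normal cat and 3.28 FPKM in the affected cat, so it differed in the opposite direction. Its level was 12.3% of that of MYH11 in the normal cat and 2.33% in the affected cat. The use of strand in counting is not given in the sources used here, so fragments on any exon that both genes cover cannot be told apart.

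The filament nucleator LMOD1, leiomodin of smooth muscle, had values in the same direction as MYH11. LMOD1 had 13.1 FPKM in the normal cat and 19.5 FPKM in the affected cat, 1.49 times higher (interval 1.37 to 1.62). MYH11 therefore stood at 6.74 times the level of LMOD1 in the normal cat and 7.22 times in the affected cat, the pair of members whose ratio differed least between the libraries.

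TAGLN, SMTN and CNN1, whose products bind actin filaments, were lower in the affected library. TAGLN encodes transgelin (SM22), an actin cross-linking protein made early in smooth muscle differentiation and also in activated fibroblasts. It had 501 FPKM in the normal cat and 199 FPKM in the affected cat, 2.52 times lower in the latter (affected over normal 0.396, interval 0.389 to 0.404). TAGLN is listed on chromosome D1 from 14793015 to 14823531, a span shared with the protease gene PCSK7, whose values were 12.1 and 9.66 FPKM. PCSK7 amounted to 2.41% of the TAGLN level in the normal cat and 4.87% in the affected cat. The part of the shared span in the TAGLN value was not tested.

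SMTN, which encodes smoothelin, a cytoskeletal protein of contractile smooth muscle, had 24.1 FPKM in the normal cat and 12.8 FPKM in the affected cat, 1.88 times lower in the latter. CNN1, calponin, which binds actin and restrains the myosin ATPase, had 40.7 FPKM in the normal cat and 30.4 FPKM in the affected cat, 1.34 times lower. The counting intervals of affected over normal were 0.489 to 0.576 for SMTN and 0.704 to 0.789 for CNN1. Each of these 3 genes thus had the lower value in the affected cat, and TAGLN had the largest difference of them.

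The intermediate filament genes were split. DES, desmin, the main filament protein of muscle cells, had 20.0 FPKM in the normal cat and 13.0 FPKM in the affected cat, 1.54 times lower in the latter (affected over normal 0.650, interval 0.597 to 0.707). SYNM encodes synemin, which assembles into filaments with desmin or vimentin and is also made outside muscle. It had 11.4 FPKM in the normal cat and 33.7 FPKM in the affected cat, 2.96 times higher (interval 2.73 to 3.20). DES was 1.75 times the level of SYNM in the normal library and 0.385 times in the affected library, so their order reversed. Vimentin itself, VIM, the filament partner outside muscle, had 1647 FPKM in the normal cat and 1105 FPKM in the affected cat.

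On the scale of log2(FPKM + 1), affected over normal, the ratios of the 9 genes ran from −1.33 for TAGLN to 1.49 for SYNM, with a median of −0.21, against a median of −0.0047 over the 16676 loci. The mean of the 9 log2 ratios was closer to 0, at −0.054. SYNM was the only member at least 2-fold higher, and 8.14% of all loci were. TAGLN was the only member at least 2-fold lower, and 8.75% of all loci were. In either direction 2 of 9 members passed 2-fold, beside 16.9% of all loci, so the share was near the background. At 1.5-fold, 2 members were higher (SYNM and MYH11) and 3 lower (TAGLN, SMTN and DES), beside 17.6% and 18.7% of all loci. The log2 ratio of SYNM was above that of 96.5% of all loci, and that of TAGLN was above 4.9%. Among loci whose mean FPKM lay within 2-fold of their own, these shares were 96.7% of 5166 loci for SYNM and 7.4% of 338 loci for TAGLN. The log2 ratios of the others were 0.67 for MYH11, 0.54 for LMOD1, 0.22 for ACTA2, −0.21 for ACTG2, −0.41 for CNN1, −0.59 for DES and −0.86 for SMTN.

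**Figure D2:**
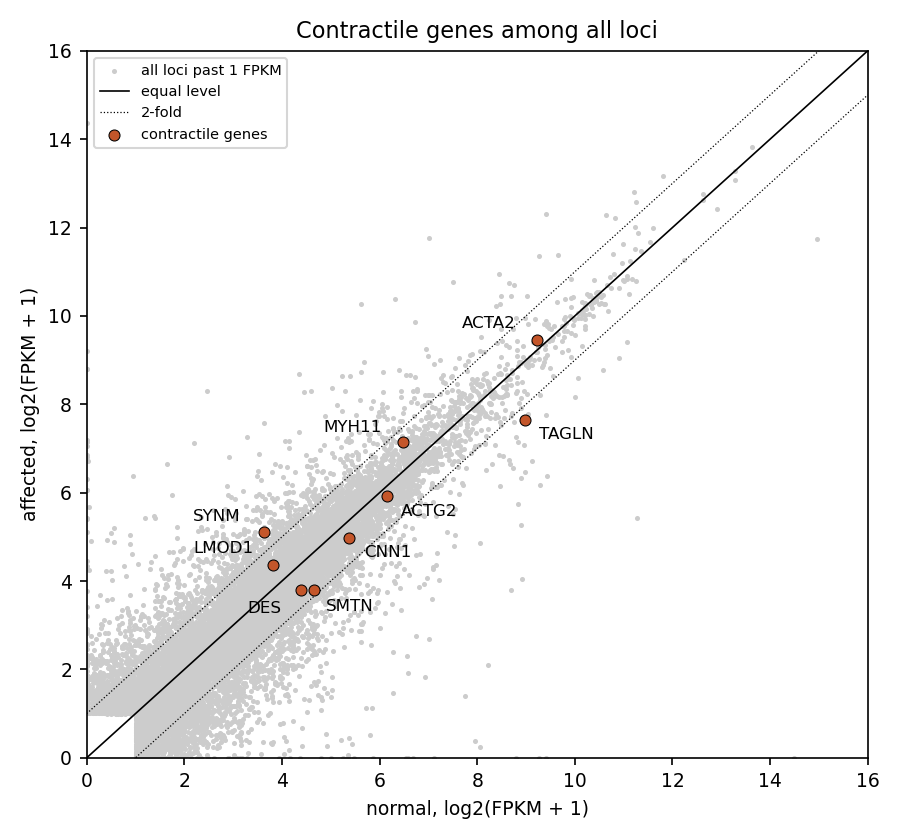
Levels of all 16676 loci that reached 1 FPKM in either library (grey) and of the 9 contractile genes (labelled), as log2(FPKM + 1) in the normal (horizontal) and affected library (vertical). The solid line marks equal levels and the dotted lines a 2-fold difference; SYNM lies above the upper and TAGLN below the lower dotted line, with log2 ratios of 1.49 and −1.33.

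Ratios between members within a library do not depend on any scaling between libraries. ACTA2 and TAGLN together made up 80.5% of the summed FPKM of the 9 genes in the normal cat and 74.3% in the affected cat. ACTA2 alone went from 43.9% to 57.9% and TAGLN from 36.6% to 16.4%, while MYH11 went from 6.44% to 11.7%. Of the 36 pairs of members, 17 had a ratio that differed at least 2-fold between the libraries. These pairs reuse the values of 9 genes, and the share among pairs of all loci was not computed, so the count has no background. TAGLN was 44.0 times the level of SYNM in the normal cat and 5.89 times in the affected cat, a 7.46-fold difference and the largest of the 36. MYH11 stood at 0.176 times the level of TAGLN in the normal cat and 0.709 times in the affected cat, a 4.03-fold difference. MYH11 was 3.65 times the level of SMTN in the normal cat and 11.0 times in the affected cat. Among the genes that were lower in the affected library, CNN1 stood at 2.04 times the level of DES in the normal cat and 2.34 times in the affected cat, a 1.15-fold difference.

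The order of levels was the same for the 4 most abundant genes in both libraries, ACTA2, TAGLN, MYH11 and ACTG2. Below them the normal library had CNN1, SMTN, DES, LMOD1 and SYNM in descending order. In the affected library SYNM took rank 5, followed by CNN1, LMOD1, DES and SMTN, so that SMTN held rank 6 in the normal and rank 9 in the affected cat. DES and SMTN had about 874 and 862 fragments per kilobase in the affected cat, and their order there is not distinguishable from counting error at 1 kilobase. No spread between cats is available for any of these ranks.

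**Figure D3:**
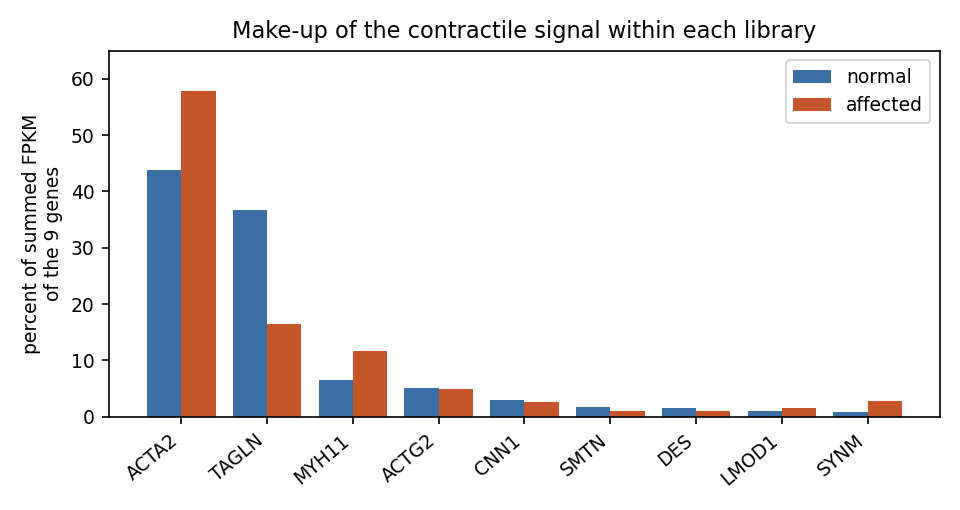
Share of each gene in the summed FPKM of the 9 contractile genes (vertical axis, percent) in the normal and affected library, with genes in the order of their level in the normal library. ACTA2 takes 43.9% and 57.9%, TAGLN 36.6% and 16.4%, MYH11 6.44% and 11.7%.

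The 9 genes lie on 9 different chromosomes of felCat5, so none neighbours another. ACTA2 lies on D2 from 8263135 to 8281286, ACTG2 on A3 from 92449806 to 92472302 and CNN1 on A2 from 8499041 to 8506585. DES lies on C1 from 203177927 to 203185144, SMTN on D3 from 22178989 to 22201415 and LMOD1 on F1 from 40141308 to 40184261. SYNM lies on B3 from 17544422 to 17572463, the chromosome that also carries LTBP2, far away from 120939589 to 121049235. LTBP2, the mutated gene, had 16.7 FPKM in the normal cat and 54.8 FPKM in the affected cat. Apart from MYH11 and TAGLN, no member overlapped another locus of the table.

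Further genes of the contractile pathway were taken from 7 lists by role, which fixed 71 names, of which 67 had a row and 62 passed 1 FPKM in at least 1 library. Of these 62, 10 were at least 2-fold lower in the affected library on the scale of log2(FPKM + 1), beside 8.75% of all loci, and 0 were 2-fold higher, beside 8.14% of all loci. With a pseudocount of 0.1 in place of 1 FPKM, 17 were lower and 2 higher, the latter in the list of calcium handling, where 13.0% of all loci were lower and 11.9% higher. The median log2 ratio of the 62 genes was −0.43, with 11 above and 51 below 0, whereas 49.7% of all loci were above and 50.3% below 0. A gene that reached 1 FPKM in only 1 library has the sign of its ratio fixed by this minimum.

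The thin filament list fixed 4 names beyond the actins, of which TPM1 was not analysed here. Its other 3 genes had the lower value in the affected library, whereas ACTA2 had the higher one. The tropomyosin TPM2, which lies along the actin filament, had 147.9 FPKM in the normal cat and 71.3 FPKM in the affected cat. TPM4, a tropomyosin shared with non-muscle cells, had 233 and 118 FPKM. CALD1, caldesmon, an actin-binding inhibitor of contraction, had 83.9 and 30.1 FPKM. Of these 3 genes, TPM2 and CALD1 were at least 2-fold lower, with log2 ratios of −1.04 and −1.45, beside 8.75% of all loci. The caldesmon and transgelin values thus lay close together in ratio, CALD1 at −1.45 and TAGLN at −1.33.

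The myosin light chains were lower by less. MYL9, the regulatory light chain that the kinase phosphorylates, had 147 FPKM in the normal cat and 113 FPKM in the affected cat, and MYL6, the essential light chain, had 1323 and 1029 FPKM. None of the 4 light chains passed 2-fold, which 16.9% of all loci did, with log2 ratios between −0.67 and −0.21, while the heavy chain MYH11 was at 0.67. MYH9, MYH10 and MYH14, heavy chains of non-muscle myosin, had log2 ratios of −0.19, −0.45 and 0.30.

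Of 9 genes that set light chain phosphorylation, 1 was at least 2-fold lower, near the 8.75% of all loci, and 0 were where genes had to average 5 FPKM. PRKG1, the cyclic GMP-dependent kinase that relaxes smooth muscle, had 6.45 FPKM in the normal cat and 2.07 FPKM in the affected cat, taken from the higher of 2 rows. PPP1R12A, PPP1R12B and PPP1R12C, targeting subunits of the myosin phosphatase, had log2 ratios of −0.25, 0.03 and 0.50. PPP1R14A, the phosphatase inhibitor CPI-17, was at −0.43, and the kinases ROCK1 and ROCK2, which inhibit the phosphatase, were at −0.12 and −0.35. The median of the list was −0.25.

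None of 18 genes of dense bodies and cytoskeletal linkers passed 2-fold in either direction, where 16.9% of all loci did. Their median log2 ratio was −0.22, close to the −0.21 of the contractile genes, with 15 of 18 below 0. The small heat shock gene HSPB1 had the highest ratio, with 220 FPKM in the normal cat and 433 FPKM in the affected cat. CSRP1, a LIM protein of smooth muscle and other cells, had 124 and 177 FPKM. VCL, FLNA, ACTN1 and TLN1, which link actin to membrane plaques or to itself, had log2 ratios of −0.35, −0.43, −0.19 and 0.27.

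The genes of calcium handling differed in both directions, with a median log2 ratio of 0.10 that changes sign when the libraries are rescaled to an equal sum. KCNMB1, the smooth muscle subunit of the large-conductance potassium channel, had 16.8 FPKM in the normal cat and 6.38 FPKM in the affected cat. These values were taken from the higher of 2 rows. Of 7 genes past the minimum, 1, KCNMB1, was at least 2-fold lower, near the 8.75% of all loci. The pore-forming subunit KCNMA1 had 6.71 and 12.0 FPKM, the opposite direction. The calcium pump ATP2A2 had 49.8 and 53.4 FPKM. The channel CACNA1C, which admits calcium on depolarisation, had 1.16 and 1.04 FPKM, too low for the log2 scale with 1 FPKM added to show much. The same holds for the calcium release channel RYR3, with 0.499 and 1.12 FPKM, and the cation channel TRPC6, with 0.619 and 1.40 FPKM, which were 2.24 and 2.26 times higher in the affected cat as FPKM but did not reach 2-fold on that scale.

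Receptors and cyclic GMP enzymes that act on smooth muscle tone had log2 ratios below 0 in 13 of 15 genes past the minimum, with a median of −0.85. CHRM2, CHRM3, ADRA1D, AGTR1, PTGER2 and TBXA2R reached 1 FPKM only in the normal library. This fixes the sign of their ratios and can add to the counts of lower genes. At least 2-fold lower were 4 of the 15, beside 8.75% of all loci, and 0 were 2-fold higher. The number lower was 10 with a pseudocount of 0.1, where 13.0% of all loci were lower, and 7 with the sums of both libraries set equal, where 10.6% were lower and 8.54% higher. The median was −1.38 with that pseudocount and −1.17 where genes had to average 5 FPKM. EDNRA, the endothelin receptor of smooth muscle, had 48.5 FPKM in the normal cat and 7.13 FPKM in the affected cat. EDNRB, the endothelin receptor found on endothelium and other cells, had 54.7 and 12.7 FPKM. The angiotensin receptor AGTR1 had 1.97 and 0.196 FPKM, and GUCY1A3, a subunit of the nitric oxide receptor guanylate cyclase, had 17.7 and 5.95 FPKM. CHRM3, the muscarinic receptor through which acetylcholine contracts the ciliary muscle and iris sphincter, was low in both, with 2.24 and 0.804 FPKM. PDE5A, which degrades cyclic GMP, had the higher value in the affected library, at 15.0 and 23.7 FPKM.

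Among the regulators of smooth muscle transcription, all 6 genes past the minimum had a log2 ratio below 0, with a median of −0.90. MYOCD, myocardin, the coactivator that switches on contractile genes through SRF, had 4.13 FPKM in the normal cat and 0.683 FPKM in the affected cat. HEYL, a Notch target of mural cells, had 23.5 and 4.06 FPKM, and these genes were the 2 of 6 that were at least 2-fold lower, beside 8.75% of all loci. MYOCD reached 1 FPKM only in the normal library, which fixes the sign of its ratio. It does not average 5 FPKM, and under that minimum 1 gene was lower. Lower were 3 with a pseudocount of 0.1 (13.0% of all loci) or with equal sums (10.6%). MKL2, a coactivator related to myocardin, had 6.03 and 3.97 FPKM. The row named MKL1 was at 0 in both libraries, but it spans only 249 bases, against 221105 for MKL2. It is therefore not read as a measure of the MKL1 gene. SRF was not analysed here. MYOCD and MYH11 thus differed in opposite directions between these libraries.

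**Figure D4:**
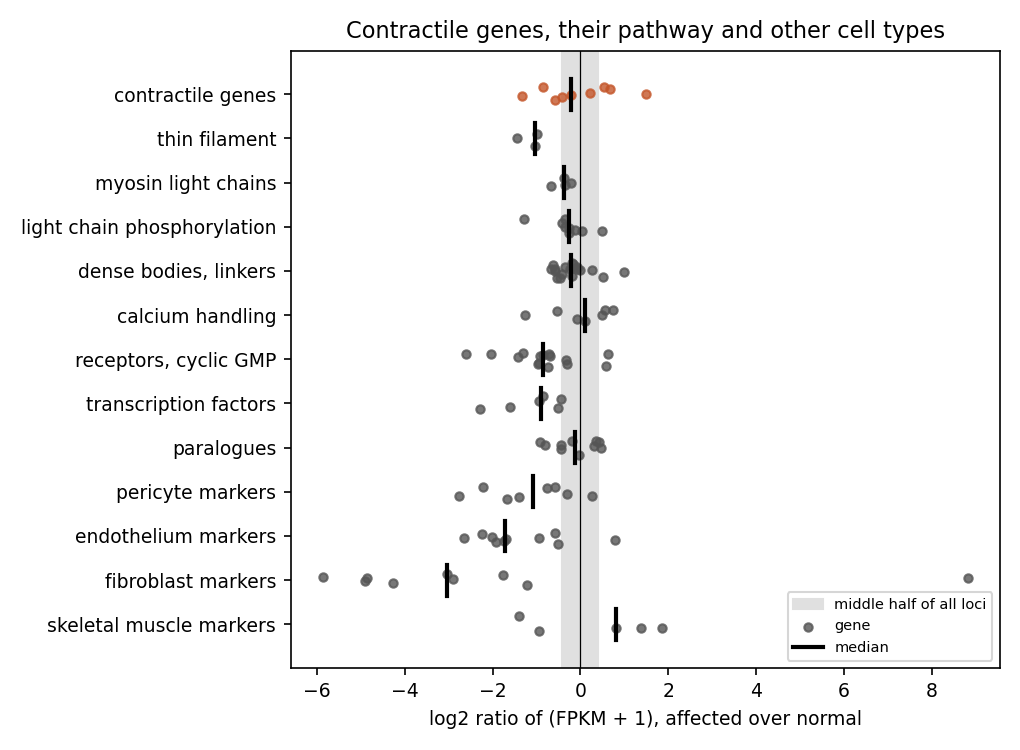
Log2 ratio of (FPKM + 1), affected over normal, for each gene past 1 FPKM in the contractile set (top row, coloured), the 7 pathway lists, the paralogues and 4 lists of cell type markers; black bars are medians and the grey band is the interquartile range of all loci, −0.43 to 0.40. The contractile genes spread on both sides of 0, while the medians of the receptor, transcription, pericyte, endothelium and fibroblast lists lie at −0.85, −0.90, −1.09, −1.72 and −3.04.

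Genes related by sequence to the members but outside the set passed 2-fold in 0 of 10 past the minimum, beside 16.9% of all loci. Their median log2 ratio was −0.11, or −0.24 with the sums of both libraries set equal. CNN3, the calponin of non-muscle cells, had 299 FPKM in the normal cat and 172 FPKM in the affected cat, and CNN2 had 66.6 and 64.9 FPKM. TAGLN2, a transgelin of non-muscle cells, had 139 and 178 FPKM, the opposite direction to TAGLN, whereas TAGLN3, a transgelin of neurons, had 29.5 and 15.1 FPKM, the same direction. LMOD2 and LMOD3, leiomodins of striated muscle, stayed below 1 FPKM in both.

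Markers of other cell types were compared because the same piece of tissue held them. Of 8 pericyte markers, which label the mural cells of small vessels, 4 were at least 2-fold lower in the affected library, beside 8.75% of all loci, and 0 higher, beside 8.14%, with a median log2 ratio of −1.09. Their summed level was 154 FPKM in the normal cat and 66.5 FPKM in the affected cat, and none was at 0. RGS5, the defining pericyte gene, had 37.6 and 4.70 FPKM, and KCNJ8, a potassium channel of pericytes, had 5.01 and 0.296 FPKM, the lowest ratios of the list. KCNJ8 and CSPG4 reached 1 FPKM only in the normal library, which fixes the sign of their ratios. NOTCH3, the mural cell Notch receptor, was the exception, with 11.9 and 14.6 FPKM. Of 10 vascular endothelium markers, 6 were at least 2-fold lower (8.75% of all loci) and 0 higher (8.14%), with a median log2 ratio of −1.72 and a summed level of 185 and 71.6 FPKM. The exception among them was FLT1, a receptor for vascular endothelial growth factor, which had 9.35 FPKM in the normal cat and 16.9 FPKM in the affected cat. FLT1 was taken from the higher of 2 rows. The summed vessel markers therefore differed by 2.32 times for pericytes and 2.58 times for endothelium, in each case lower in the affected cat. The summed contractile genes were 1.13 times lower, a sum led by ACTA2 and TAGLN. Without these 2 genes the sum was 267 FPKM in the normal cat and 310.4 FPKM in the affected cat, 1.16 times higher. That smaller sum leaves out TAGLN, the only member at least 2-fold lower. Of its 7 genes 3 were higher and 4 lower. MYH11 alone, at 88.2 and 141 FPKM, gained more than the sum did, so the direction rests on MYH11.

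Of 9 fibroblast and stroma markers, 8 were at least 2-fold lower in the affected library, beside 8.75% of all loci, from COL1A1, with 2476 and 41.8 FPKM, to THY1, with 30.8 and 12.7 FPKM. COL1A2 was listed at 0 in the normal cat and at 447 FPKM in the affected cat. It is 1 of 35 loci that are at 0 in either library but reach 10 FPKM or more in the other. The summed level was 4336 FPKM in the normal cat and 640.3 FPKM in the affected cat, or 193 FPKM in the latter without COL1A2, whose value of 0 may be a failed estimate. TAGLN, CALD1 and the tropomyosins are also made by fibroblasts, and they differed in the same direction as these markers. Of the 9 members, 5 were lower like these markers. The other 4, ACTA2, MYH11, LMOD1 and SYNM, differed in the opposite direction, and SYNM is also made outside muscle. The part of fibroblast, pericyte and endothelial RNA in the values of the contractile genes was not tested. In such bulk tissue, fewer cells of a type and less RNA per cell cannot be told apart.

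Skeletal muscle markers were examined because DES is also a gene of striated muscle and extraocular muscle inserts on the sclera. Of 14 skeletal muscle markers with a row, 5 passed 1 FPKM in either library, of which 2 were at least 2-fold higher (8.14% of all loci) and 1 lower (8.75%) in the affected cat, with a median log2 ratio of 0.80. These values depend on low genes, since the median was 0.042 with no minimum and 0.459 where genes had to average 5 FPKM, when 1 gene was higher and 0 lower. With a pseudocount of 0.1 the median was 1.16, with 3 higher (11.9% of all loci) and 2 lower (13.0%). Equal sums gave 2 higher (8.54%) and 2 lower (10.6%). TNNI2 reached 1 FPKM only in the normal library and TNNC2 only in the affected one, which fixes the sign of their ratios. TTN, NEB, MYL1, TNNT3, MYH3, MYH8 and MYH13 were each below 0.5 FPKM in both libraries. MB and MYLPF were below 1 FPKM, and none of the 14 was at 0. ACTA1, MYH1, MYH2 and ACTN3 were not analysed here. Exceptions were the creatine kinase gene CKM, with 8.40 FPKM in the normal cat and 33.0 FPKM in the affected cat, CASQ1, with 16.5 and 8.14 FPKM, and smaller values of TNNI2, TNNC2 and RYR1. DES, at 20.0 and 13.0 FPKM, was thus below CKM in the affected library and close to CASQ1 in the normal one. CASQ1 and TNNI2 differed in the same direction as DES, with log2 ratios of −0.94 and −1.40, and CKM, TNNC2 and RYR1 in the opposite one, at 1.86, 1.38 and 0.80. The part of striated muscle RNA in the DES values was not tested.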

How the data were processed

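Polyadenylated RNA of 1 normal and 1 affected cat (RNeasy extraction, TruSeq v2 libraries) was analysed from deposited FPKM. The authors aligned reads to felCat5 in TopHat2 2.0.9, guided by Ensembl genes, and derived FPKM in Cufflinks 2.1.1. Scaling between libraries is not given in the sources used here. Conditions were taken from the sample labels. The 10 names and all lists were chosen with earlier results of these data known. Named in the text are members, list genes, loci overlapping a member, and LTBP2; no gene was named for a like pattern, as there are only 2 libraries. List genes not named enter the counts and medians, and the value of some is not reported here. Repeated names were represented by the row with the higher mean. Log2 ratios used a pseudocount of 1 FPKM over the 16676 loci that reached 1 FPKM in either library, without rescaling; they understate differences of low genes. Locus starts, counted from 0 in the table, are printed from 1.

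Fragment totals were fitted so that low values at unnamed loci fall on whole fragments: 97.3% of 1879 loci in the normal and 95.4% of 1301 in the affected library lay within 0.03 of one. A scale fixed beforehand would give 6% by chance. The scale was chosen to raise this share, so 6% is not the chance level of the fit. No count model and no p-value was used. Both steps were tested on simulated data. The scripts ran under Python 3.11.15 (pandas 2.3.3, numpy 2.4.6; plots by matplotlib 3.10.9). Alternatives were a pseudocount of 0.1, no minimum, a mean of at least 5 FPKM, 2 rescalings, a 1.5-fold threshold, a mean for the median and, added after the data were seen, removal of TAGLN and MYH11.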

Additional observations from a re-analysis of the deposited data

How the results depend on the processing

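All 45 recomputed log2 ratios of the 9 contractile genes kept their sign and moved by less than 0.1 under another pseudocount, minimum or scaling. A minimum cannot change the ratio of a single gene, and a scaling shifts all genes nearly alike, so these are not 45 separate checks. At 1.5-fold, 2 members were higher and 3 lower, against 2929 and 3125 of all loci. Where loci had to average 5 FPKM, 815 were 2-fold higher and 691 lower. The mean log2 ratio of the members was −0.054 in place of a median of −0.21. Without TAGLN and MYH11 the number of members 2-fold lower was 0, since TAGLN was that member. The pathway genes 2-fold lower numbered 7 to 17 over the pseudocounts, minimums and scalings, against 10, and the calcium list had medians between −0.22 and 0.10 over the alternatives, so its sign is not settled. The cause of these shifts was not tested. The lowest member had about 809 fragments per kilobase, which limits the order of close members such as DES and SMTN, and receptors and regulators near 1 FPKM are less certain. No paired analysis was possible because there is only 1 cat per group.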
